A study of Homo sapiens with 4 samples.

Results

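The circular RNAs of CHKA, the gene of choline kinase alpha, were followed in 4 nanopore libraries of MDA-MB-468, a human line grown from breast carcinoma. All 4 libraries came from a derivative made resistant to radiation by fractionated doses that summed to 50 Gy. In 2 of them the cells carried a control short hairpin RNA (shCtrl), and in the other 2 a stable short hairpin against HNRNPL (shHNRNPL), an RNA-binding protein that regulates splicing. The series text calls the replicates biological but names no separate cultures, so p-values here measure the spread between these libraries. The study was designed to find circular RNAs that depend on HNRNPL. The design holds neither the parental line before radiation nor a second hairpin, so the comparison is of HNRNPL knockdown within resistant cells.

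CHKA circles were all rows of the deposited count table that name CHKA and are not antisense. These were 63 of 211599 back-splice positions, and each of them named CHKA alone. CHKA was chosen by its summed circle count, which was lower after knockdown in these same libraries. Differences between the groups are therefore given below as a description, without a test. By type, 28 positions were exon circles and 35 were intron circles. At least 1 count was found for 59 of them, and the remaining 4 had 0 in every library. The members held 373 counts together, and 8 of them had at least 10.

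Choline kinase phosphorylates choline to phosphocholine, the step that commits choline to the CDP-choline (Kennedy) pathway of phosphatidylcholine synthesis. Phosphocholine is then activated to CDP-choline by PCYT1A, and the choline phosphotransferases CHPT1 and CEPT1 transfer it to diacylglycerol. CHKA is often raised in breast and other carcinomas, where high phosphocholine is a known metabolic feature. A circular RNA forms when the 5′ splice site at the end of an exon is joined back to the 3′ splice site at the start of the same or an earlier exon. The circle then holds the exons between them and lacks free ends. HNRNPL is known to bind CA-rich RNA.

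The libraries held between 282737 and 556578 counts. shCtrl replicate 1 stood apart from the other 3: intron circles took 19.7% of its counts, against 9.93% to 10.6% elsewhere, and antisense circles 6.79%, against 2.38% to 2.69%. Its values are given separately wherever this touches a result. The shCtrl libraries also differed more from each other than the shHNRNPL libraries did, with a mean chi-square per circle of 18 in the first pair and 2.28 in the second, over circles with at least 40 counts in the pair. No row of the table names HNRNPL, so its knockdown could not be checked in these circles. Amplified reads carry no molecular identifiers here, so the intervals below cover counting error only. Among genes that mark this line, epithelial GRHL2 had 1071 circle counts, EGFR 200, EPCAM 40, ESRP1 39 and CDH1 25. KRT5 had 2, while KRT8, KRT18 and KRT19 were at 0. RB1 and SMAD4, which are recorded as deleted in MDA-MB-468, had 0 and 2. PTPRC, PECAM1, COL1A1 and COL1A2 of other cell types were at 0, FN1 had 5 and VIM had 3.

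CHKA lies on the minus strand of chromosome 11, at 68052859 to 68121388 in the RefSeq gene table of GRCh38.p14, the build named in the submitters' processing notes. Transcription therefore runs from high to low coordinates, and the first base of a CHKA circle is its higher coordinate. The deposited exon structures of the members shared 13 recurring blocks, each present in at least 3 circles. In the order of transcription they were 112, 60, 30, 122, 54, 114, 134, 105, 59, 88, 109, 107 and 82 nt long. The 112 nt block spans 68097019 to 68097130, and the 82 nt block spans 68061953 to 68062034. No exon circle reached further towards the 5′ end of the gene than base 68097130, which is 24258 bases from it. The span between that base and the start of the gene gave only intron circles. Each circle length given here equals the sum of the blocks that the table lists for it.

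A single 5′ splice site dominated the exon circles. Circles whose last base was 68061953, the end of the 82 nt block, made up 14 of the 63 positions and held 218 of the 373 counts (58.4%). They held 77.4% of the counts of exon circles. The next most used last base, 68064525 at the end of the 107 nt block, held 18 counts. Of the 8 circles with at least 10 counts, 7 ended at base 68061953, and each of them began at a different base.

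The largest CHKA circle joined 9 blocks, from the 54 nt block to the 82 nt block (68061953 to 68081457, exon type, 852 nt). It had 29 and 44 counts in the shCtrl replicates and 4 and 7 in the shHNRNPL replicates. Per 100000 library counts these were 6.14 and 7.91, against 1.41 and 1.79. Both knockdown values lay far below both controls. Group means were 7.02 ± 1.25 and 1.60 ± 0.267 (SD, n = 2), and the ratio of summed counts at summed depth was 4.34 (95% exact interval 2.29 to 9.08). Such intervals pool the 2 libraries of a group, leave out the spread between them and are not tests, since CHKA was chosen for a lower sum.

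Both circles that add the next blocks upstream were lower as well. The circle that adds the 122 nt block to the largest one (68061953 to 68081848, 10 blocks, 974 nt) had 9 and 15 counts in shCtrl and 1 and 0 in shHNRNPL. Its ratio of summed counts was 15.7, with an interval of 2.56 to 646 that reflects the single count after knockdown. The circle that also adds the 30 nt block (68061953 to 68082520, 11 blocks, 1004 nt) had 13 and 20 counts in shCtrl and 1 and 2 in shHNRNPL, a ratio of 7.20 (2.26 to 36.7). For both circles the 2 groups did not overlap.

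Among exon circles with at least 10 counts, those that began at other blocks did not separate the groups. The circle that starts at the 114 nt block (68061953 to 68074830, 8 blocks, 798 nt) had 9 and 4 counts in shCtrl and 2 and 6 in shHNRNPL. The ratio of its summed counts was 1.06 (0.408 to 2.96). The circle that starts at the 134 nt block (68061953 to 68070857, 7 blocks, 684 nt) had 5 and 1 counts in shCtrl and 1 and 4 in shHNRNPL, a ratio of 0.785 (0.200 to 3.25). The longest reaching of them (68061953 to 68097130, 964 nt) starts at the 112 nt block and continues directly with the 54 nt block, so that its 10 blocks leave out the 60, 30 and 122 nt blocks. It had 3 counts in each shCtrl replicate and 1 and 3 in shHNRNPL, a ratio of 0.981 (0.233 to 4.73). By counting error alone, the intervals of these 3 circles include both no change and a change of more than 2-fold in either direction.

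**Figure D1:**
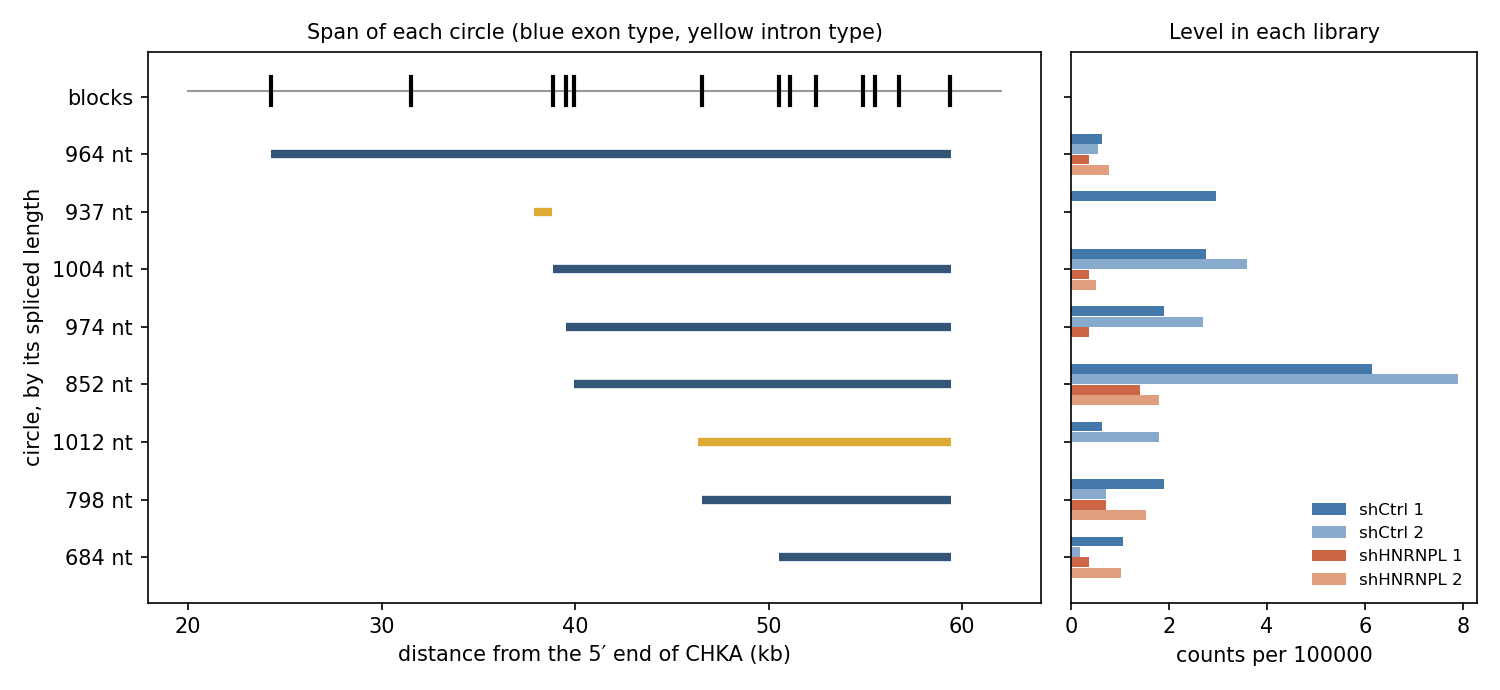
Span and level of the 8 CHKA circles with at least 10 counts. Left: span of each circle as distance in kb from the 5′ end of CHKA, with the 13 recurring blocks as ticks on top. Right: counts per 100000 in each library, as bars from 0. The right edge is the same for 7 of the 8 circles, and the 852, 974 and 1004 nt circles are lower in both shHNRNPL libraries than in both shCtrl libraries.

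The other 2 circles with at least 10 counts were of intron type. The first of them (68061953 to 68075044, 1012 nt) ends at the shared base and begins inside the intron before the 114 nt block, which it holds in an extended form. It had 3 and 10 counts in shCtrl and 0 in both shHNRNPL libraries. Against a floor of 3 counts in each knockdown library, the shHNRNPL mean is at least 1.33-fold lower than the shCtrl mean. This rests on shCtrl replicate 2, since shCtrl replicate 1, with 3 counts in a larger library, lies below both floors. The second (68082583 to 68083519, 937 nt) is 1 unspliced block upstream of the 30 nt block. All of its 14 counts came from shCtrl replicate 1, and without that library no count is left. In all, 4 of these 8 circles had both shHNRNPL values below both shCtrl values and none had both above. Counts of 0 were taken as 0 here, without the floor. Over all circles with at least 10 counts, 22.9% had both knockdown values below both controls. CHKA was chosen for a lower sum, and the 1012 nt circle passed the filter through shCtrl counts only. Nothing is therefore read from the difference between these shares.

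The deposited junction fields of these circles were alike. The splice field was AG-GT with both offsets at 0 for the 7 circles that end at base 68061953, and AG-GT with offsets of 4 for the unspliced block. The field for equivalent sequence at the junction read G for the 852, 684, 964 and 1012 nt circles, GG for the 798 nt circle, GGT for the 974 nt circle and GGTAT for the 1004 nt circle. An asterisk, whose meaning is not given in the sources used here, was attached to the splice field of the 974, 1012 and 937 nt circles. Among all members, 17 positions had no asterisk and they held 71 and 88 counts in shCtrl and 11 and 26 in shHNRNPL. The 46 marked or empty fields held 108 and 58 counts in shCtrl and 6 and 5 in shHNRNPL.

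The share of each starting block was next taken among exon circles that end at base 68061953, of which the libraries held 69, 90, 10 and 23 counts in the order shCtrl 1, shCtrl 2, shHNRNPL 1 and shHNRNPL 2. The 3 most abundant of these circles, those of 852, 974 and 1004 nt, were grouped after their values were seen. They took 73.9% (95% exact interval 61.9 to 83.7) and 87.8% (79.2 to 93.7) in shCtrl, and 60% (26.2 to 87.8) and 39.1% (19.7 to 61.5) in shHNRNPL. Both knockdown shares were the lower ones, but the interval of shHNRNPL replicate 1, on 10 counts, includes both control shares. In counts per 100000 the 3 circles went from 12.5 ± 2.40 to 2.21 ± 0.129 (SD, n = 2), while the other 6 exon circles with this last base were at 2.89 ± 1.30 and 2.50 ± 1.53. The 3 were ranked by counts summed over all libraries, and shCtrl gave most counts of exon circles with this last base (159, against 33 in shHNRNPL). Such a ranking favours circles that are high in shCtrl, so nothing is read from the contrast with the other 6. Whether the share differs between the groups was not tested.

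**Figure D2:**
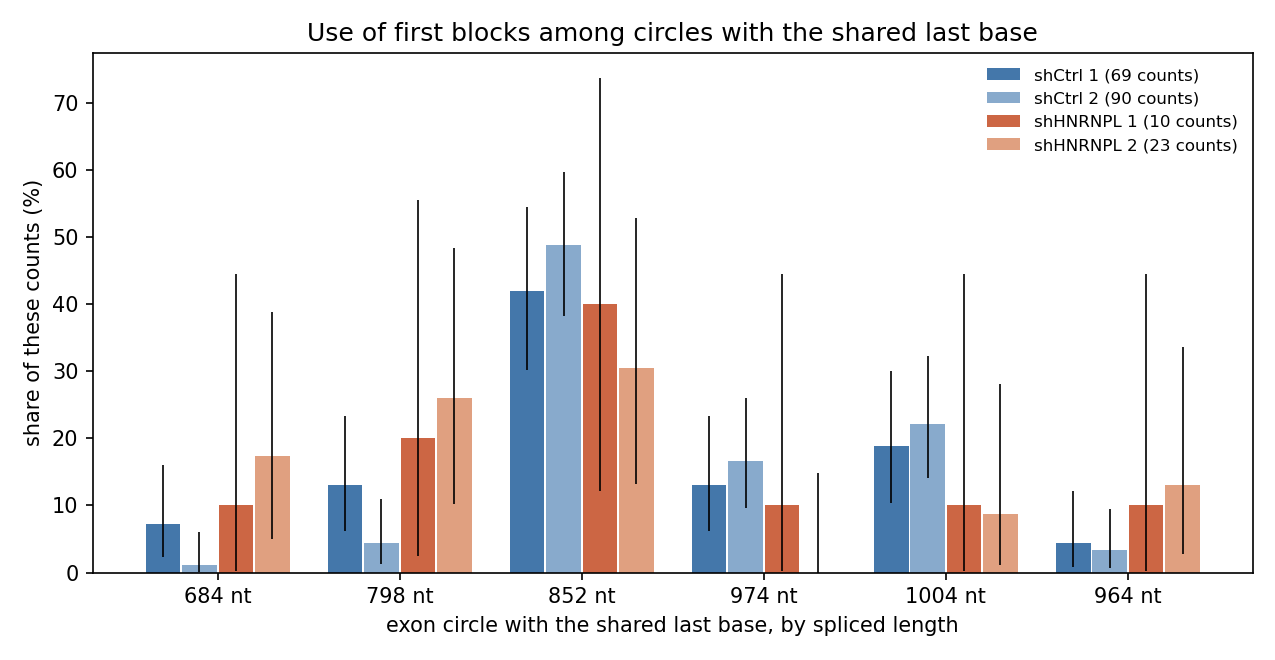
Share, in percent, of each of 6 circles among the exon circle counts that end at base 68061953, in each library. Bars start at 0 and lines are 95% exact binomial intervals. The 852 nt circle is the largest in every library (30.4% to 48.9%), and the intervals of the shHNRNPL libraries, on 10 and 23 counts, are wide.

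Circles were also summed by their first base, whatever their last base. Those that start at the 54 nt block numbered 5 and had 33 and 58 counts in shCtrl and 4 and 7 in shHNRNPL. The 3 that start at the 114 nt block had 14 and 10 counts in shCtrl and 2 and 7 in shHNRNPL. The 3 that start at the 134 nt block had 5 and 1 in shCtrl and 3 and 5 in shHNRNPL, and the 4 that start at the 112 nt block had 6 and 3 in shCtrl and 1 and 4 in shHNRNPL. By last base, the 107 nt block gave 9 and 6 counts in shCtrl and 2 and 1 in shHNRNPL, and the 59 nt block, at base 68068879, gave 3 and 11 in shCtrl and 1 in each shHNRNPL library. Groups did not overlap for the 54 nt start and the 107 and 59 nt ends. The 852 nt circle alone held 84 of the 102 counts of the 54 nt start, and both ends rest on 1 or 2 counts per knockdown library. Groups overlapped for the 112 nt start and for the 109 nt end, at base 68065786, which had 1 and 3 counts in shCtrl and 0 and 2 in shHNRNPL. How often such sums separate the groups over all host genes was not computed, so nothing is read from these separations. The 134 nt start ran the other way, with both knockdown values, 1.06 and 1.28 per 100000, above both controls, 1.06 and 0.180, though the nearest of them differ only in the next digit. At the 114 nt start the highest knockdown value, 1.79 per 100000, reached just short of the lower control, 1.80.

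The 54 nt block was kept in 10 of the 10 exon circles that start upstream of it and end downstream of it. Its length is a multiple of 3. Neither the 30 nt nor the 122 nt block was so constant, since the 964 nt circle leaves out both. The rows carry no counts per internal structure, and only 1 of the 63 listed more than 1 structure.

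Scaled to all counts of a library, exon circles as a class were closely matched between the controls. They had 98 and 110 counts in shCtrl and 14 and 26 in shHNRNPL. Per 100000 these were 20.7 and 19.8, against 4.95 and 6.66, so that the controls differed little and the groups were well apart. Means were 20.3 ± 0.693 and 5.80 ± 1.21 (SD, n = 2), a ratio of 3.49. Counted per 100000 exon circle counts of each library instead, they were at 29.3 and 23.3 in shCtrl and 5.78 and 7.78 in shHNRNPL, a ratio of 3.88. On that scale the controls were less closely matched. In these bulk libraries, fewer cells with the circles and fewer circles per cell cannot be told apart.

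Intron circles of CHKA were of 2 kinds. Those of 2 or more blocks, which have internal gaps in the deposited structures, had 24 and 33 counts in shCtrl and 3 in each shHNRNPL library. Per 100000 these were 5.08 and 5.93, against 1.06 and 0.768, which again left the groups apart. Examples are the circles that begin in the intron before the 134 nt block, at 68072377 and 68072825. The second of these starts, joined to the shared last base (778 nt), had 6 counts in shCtrl replicate 2 and none elsewhere. The control sums were thus similar while single positions differed. An 8150 nt circle of 2 blocks (68084164 to 68092364) had 9 counts, all in shCtrl replicate 1. Another, of 899 nt (68061906 to 68081457), had 9, all in shCtrl replicate 2. The count-weighted median length was 3176 nt in shCtrl replicate 1 and 899 nt in shCtrl replicate 2. Whether each internal gap is a spliced intron was not tested. Intron circles of 1 unspliced block had 57 and 3 counts in shCtrl and 0 and 2 in shHNRNPL.

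The unspliced kind thus came almost wholly from shCtrl replicate 1. It made up 31.8% (95% exact interval 25.1 to 39.2) of the CHKA counts there and 2.05% (0.426 to 5.89) in shCtrl replicate 2. Each of its 17 positions with a count was seen in only 1 library. In shHNRNPL replicate 1 none were found among 17 counts. Because of this kind, all intron circles together were at 17.1 per 100000 in shCtrl replicate 1 and 6.47 in shCtrl replicate 2, beside 1.06 and 1.28 in shHNRNPL. Their ratio of means of 10.1 rests on that library, whereas circles of 2 or more blocks, of either type, were at 25.8 and 25.5 in shCtrl and 6.01 and 7.43 in shHNRNPL.

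**Figure D3:**
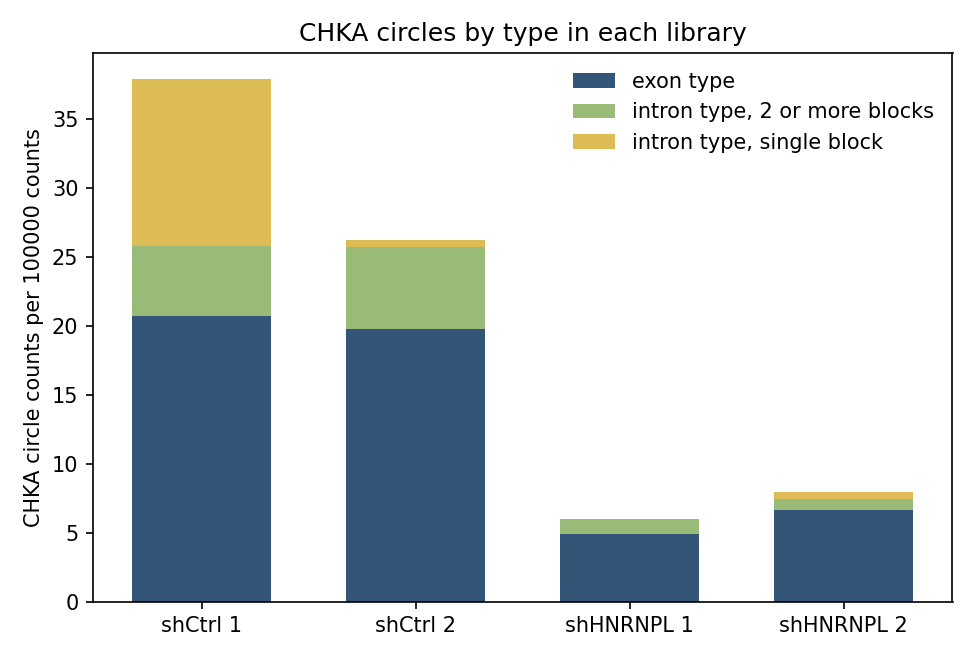
CHKA circle counts per 100000 library counts in each of the 4 libraries, as bars stacked by type from 0. The sums of exon circles (20.7 and 19.8 in shCtrl, 4.95 and 6.66 in shHNRNPL) and of intron circles of 2 or more blocks are similar in the 2 controls, though the latter came largely from different positions. Unspliced intron circles are mostly in shCtrl replicate 1.

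Summed over all 63 positions, CHKA had 179 and 146 counts in shCtrl and 17 and 31 in shHNRNPL. These were 37.9 and 26.2 per 100000, against 6.01 and 7.94, and both knockdown values lay below both controls. The same held for 36.1% of the 5911 host genes with at least 10 counts. In edgeR's quasi-likelihood fit its log2 fold change came to -1.85 (SE 0.38), beside a median of -0.27 over all host genes, and 13.7% of them had a lower value. With scaling to library size it was -2.27 beside a median of -0.67. Host genes lower at an adjusted p of 0.05 made up 0.0338% of those tested, and CHKA was chosen as a member of that small group, so nothing is read from its place there. With exon circles only, it came to -1.60 (SE 0.37).

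The number of different CHKA circles followed the counts. There were 43 and 23 in shCtrl and 10 and 13 in shHNRNPL, or 35.9, 18.9, 10 and 10.9 as the expected numbers at the depth of the smallest library. Of the 59 circles with a count, 41 were seen only in shCtrl, 6 only in shHNRNPL and 12 in both. Over the whole series, 106227 and 77209 positions of any type had a count in shCtrl, and 62513 and 74531 in shHNRNPL. The split of CHKA circles is not corrected for depth, and nothing is read from it. Counts of 1 to 9 belonged to 51 circles, which together held 42.6% of the CHKA counts. These had 94 and 49 counts in shCtrl and 7 and 9 in shHNRNPL. Only 5 circles were seen in all 4 libraries, so that most single positions lie at the limit of this depth. A count of 0 allows up to 3 counts, which is between 0.539 and 1.06 per 100000 in these libraries.

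Within the series, CHKA was a fairly productive host. It ranked 749 of the 5911 host genes by counts and 472 by the number of different circles. Its exon circles were short, with a count-weighted median of 852 nt and a range of 445 to 1302 nt, beside a median of 1255 nt over all exon circles. By library that median was 852 nt in both shCtrl replicates and 798 nt in both shHNRNPL replicates. Intron circles took a larger share of the CHKA counts than of all counts that were not antisense: 45.3% and 24.7% against 21.1% and 10.9% in shCtrl, and 17.6% and 16.1% against 10.2% and 10.3% in shHNRNPL. The intervals of the CHKA shares in shHNRNPL, 3.80% to 43.4% and 5.45% to 33.7%, include the shares of the whole libraries.

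Other genes of choline and phosphatidylcholine metabolism were compared next, as a list of 38 without CHKA, of which 16 had enough circle counts for the test. None passed an adjusted p of 0.05 in edgeR, beside 1.51% of all host genes in either direction. At an unadjusted p under 0.05, 3 were lower and 0 higher in edgeR, where 6.89% of all host genes were lower. DESeq2 put 1 lower at an unadjusted p under 0.05 and called 0 after adjustment, but gave no adjusted p for part of the list, PCYT1A and CHPT1 among them. The median log2 fold change of the 16 was -0.50, beside -0.27 for all host genes, with 12 below 0 and 4 above, or 13 and 3 with scaling to library size.

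The genes next to CHKA in the pathway were taken in order. CHKB, the other choline kinase, had no circle count in rows that name it alone. PCYT1A had 6 and 1 counts in shCtrl and 1 and 5 in shHNRNPL. CHPT1 was at 3.37 ± 0.573 and 1.65 ± 0.164 per 100000 (SD, n = 2). The fit put it at -0.73 (SE 0.74) on the log2 scale. CEPT1, which can transfer both phosphocholine and phosphoethanolamine, had 71 and 128 counts in shCtrl and 40 and 63 in shHNRNPL, a log2 fold change of -0.05 ± 0.40 (SE). Neither log2 fold change was larger than its standard error, although the CHPT1 values of the groups did not overlap.

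The parallel CDP-ethanolamine route builds phosphatidylethanolamine. SELENOI, the ethanolamine phosphotransferase, had 274 and 300 counts in shCtrl and 43 and 86 in shHNRNPL. Per 100000 it stood at 55.9 ± 2.90 and 18.6 ± 4.82 (SD, n = 2). On the log2 scale the fit put it at -1.26 (SE 0.39), and edgeR's adjusted p, 0.171, missed the threshold. ETNK1, an ethanolamine kinase, was at 22.5 ± 0.419 and 21.6 ± 2.04 (SD, n = 2). PCYT2, ETNK2 and PCYT1B had no counts in rows that name 1 gene. Among the transporters, the choline carrier SLC44A1 was at 8.91 ± 1.17 and 5.29 ± 0.482 per 100000, and FLVCR1, which also carries choline, at 11.9 ± 0.827 and 14.2 ± 3.08 (SD, n = 2).

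Fits with a single control library take their spread from the shHNRNPL pair alone, the closer of the pairs, and assume that the lone control varies like it. They called 27.0% of all host genes without shCtrl replicate 1 and 38.5% without shCtrl replicate 2. Without shCtrl replicate 1, 3 of the 14 list genes tested passed in edgeR, each lower: SELENOI, the phospholipase D gene PLD1, and GPCPD1, which breaks down glycerophosphocholine. Without shCtrl replicate 2, 7 of 16 passed: SELENOI, the choline transporter-like gene SLC44A3 and the phosphatidate phosphatase LPIN1 as lower, and CEPT1, ETNK1, FLVCR1 and GPCPD1 as higher. The log2 fold change of GPCPD1 was thus -0.84 against one control and 0.52 against the other. SELENOI was the only list gene called lower in both fits, at -1.30 and -1.01. Nothing particular to the list is read from these calls.

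Genes beside CHKA on chromosome 11 were compared as well, since they share its locus. Of 88 annotated within 1 Mb of it, 6 had enough circle counts, and none passed an adjusted p of 0.05 in edgeR, while at an unadjusted p under 0.05 there was 1, lower, where 6.89% of all host genes were lower. DESeq2 had 0 at either threshold, though it gave no adjusted p for TESMIN, CPT1A and IGHMBP2. PPP6R3, a phosphatase regulatory subunit, had 730 and 1194 counts in shCtrl and 608 and 847 in shHNRNPL, a log2 fold change of 0.51 ± 0.49 (SE). KMT5B, a histone methyltransferase gene, had 59 and 91 counts in shCtrl and 22 and 33 in shHNRNPL, at -0.54 ± 0.41 (SE). KDM2A, a histone demethylase gene, had 30 and 53 in shCtrl and 3 and 13 in shHNRNPL, at -1.51 (SE 0.65), where edgeR gave an adjusted p of 0.311. CPT1A had 13 and 8 counts in shCtrl and 3 and 7 in shHNRNPL, and TESMIN 6 and 4 in shCtrl and 0 and 2 in shHNRNPL. All 13 counts of IGHMBP2 came from shCtrl replicate 1. In the single-control fits, KDM2A and KMT5B passed as lower without shCtrl replicate 1 (2 of 4 tested, beside 27.0% of all host genes), and IGHMBP2 as lower and PPP6R3 as higher without shCtrl replicate 2 (2 of 5, beside 38.5%).

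**Figure D4:**
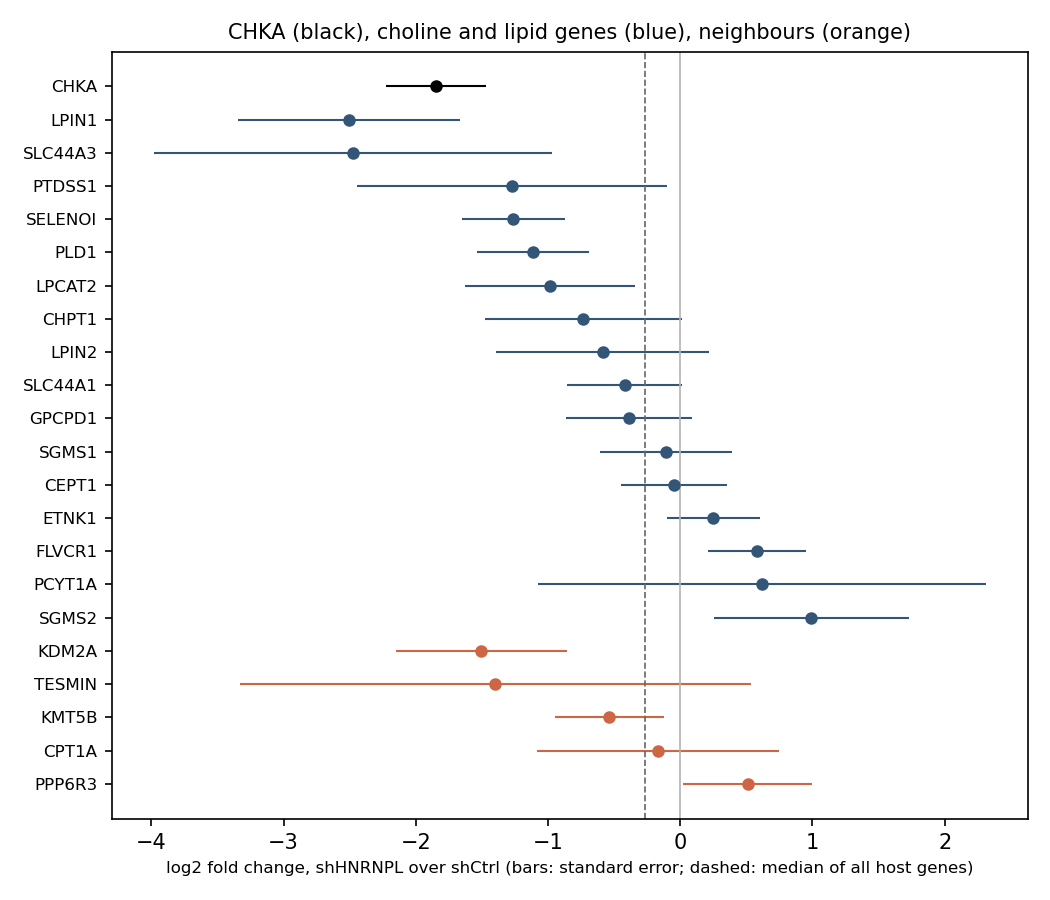
Log2 fold change, shHNRNPL over shCtrl, of summed circle counts in edgeR's fit over all host genes, with standard errors as bars: CHKA, the 16 tested genes of the choline and phosphatidylcholine list, and 5 of the 6 tested neighbours (IGHMBP2, with 0 in both shHNRNPL libraries, is left out). The dashed line is the median of all host genes, -0.27. CHKA is at -1.85 and PPP6R3, nearby on the chromosome, at 0.51.

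The host genes with the profile most like that of CHKA over the 4 libraries were found by the Euclidean distance between centred log2 values, among 2042 genes with at least 100 counts. The nearest was TTBK2, a tau tubulin kinase gene, at a distance of 0.216, with 73 and 52 counts in shCtrl and 6 and 13 in shHNRNPL. It was followed by RAB11FIP1, a Rab11 effector gene, at 0.253, and HNRNPC, which encodes another hnRNP protein, at 0.295. TMEM165 and ZKSCAN1 came next, at 0.337 and 0.338. The median distance of all these genes was 1.99. Each of the 5 was higher in both controls than in both knockdowns, and each had its highest value in shCtrl replicate 1. With 4 libraries, many genes can share a profile, and the distance is a description.

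**Figure D5:**
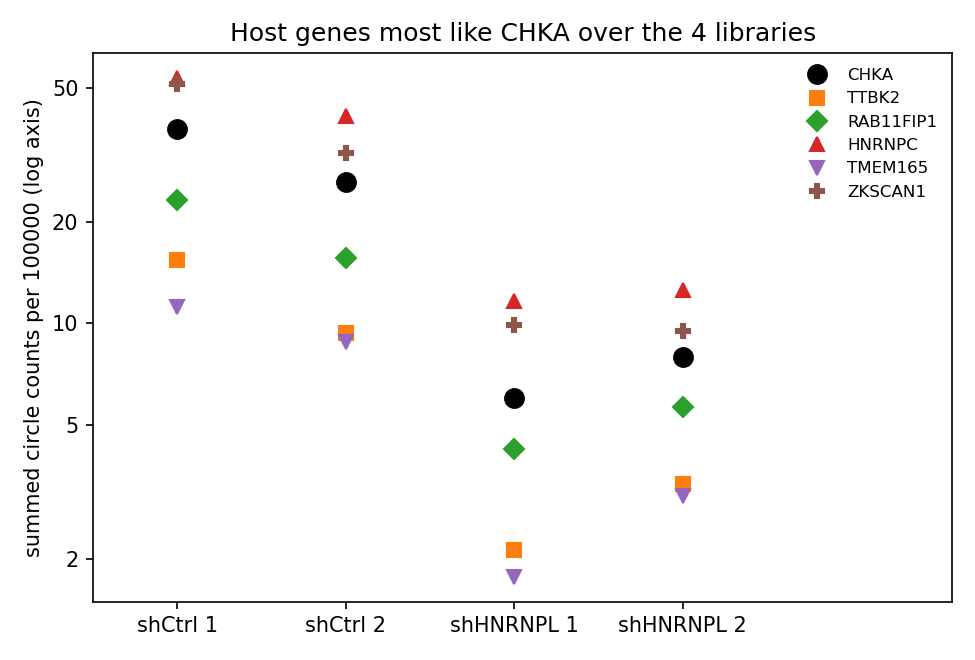
Summed circle counts per 100000, on a log axis, of CHKA and of the 5 host genes nearest to it in profile, in each of the 4 libraries. Levels differ between genes, from 11.2 for TMEM165 to 53.6 for HNRNPC in shCtrl replicate 1, while the drop from shCtrl to shHNRNPL is alike, which is how they were chosen.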

How the data were processed

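Per the labels' protocols, total RNA was reverse transcribed with the Induro enzyme from random hexamers, which copies circles repeatedly. Amplification used phi29 polymerase, and T7 endonuclease I treatment followed. The authors deposited raw counts, 1 row per back-splice position. CIRI-long is named in each row, per the file columns. GRCh38.p14 and DESeq2 are named in the submitters' processing notes. Versions, aligner and filters are not given in the sources used here. The second deposited table, the same counts rescaled to 100000, was not used.

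The members and gene lists were chosen with earlier results of these data known. Host gene sums took rows naming 1 gene, not antisense. They were tested with edgeR 4.0.16 (R 4.3.3): TMM, glmQLFit with default options, quasi-likelihood F test, at least 10 counts over the 4 libraries, Benjamini-Hochberg adjustment over all host genes. The code was tested on simulated data. Standard errors were derived from the F statistic. Members with at least 10 counts were given per library. Named with values were pathway genes past the threshold and, with at least 10 counts, those of the CDP-choline and CDP-ethanolamine routes, SLC44A1 and FLVCR1, all neighbours with at least 10 counts, and the 5 nearest profiles. PLD1, GPCPD1, SLC44A3 and LPIN1 were named after their values in single-control fits were seen. Likeness used log2 of counts per 100000 plus 0.5. Intervals are exact 95% binomial. No sequence of CHKA was used here. One marker gene is not reported here. Alternatives were other scaling, filters, tools and dispersion method, a replicate block, other gene assignment, leaving out each library, and, chosen after seeing the data, exon circles only and circles of 2 or more blocks only.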

Additional observations from a re-analysis of the deposited data

How the results depend on the processing

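The log2 fold change of CHKA was below 0 in all 14 alternatives, between -2.27 with library-size scaling and -1.60 with exon circles only. Its direction was fixed by how CHKA was chosen, so these values are a description. Leaving out each library gave -2.08 to -1.64.

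Host genes lower past the threshold numbered 2. There were 9 with library-size scaling, 8 with DESeq2, 89 with no filter on low counts, 1 under the filter of 5 counts in 2 libraries, 8 with at least 40 counts, 0 under the newer dispersion estimate (426 lower at an unadjusted p under 0.05), 0 with each row counted for every gene it names (514 likewise), 4 with exon circles only, 14 with circles of 2 or more blocks, and 0 to 1019 when each library was left out: 527 and 1019 without shCtrl replicates 1 and 2, and 0 without either shHNRNPL replicate (126 and 128 lower at an unadjusted p under 0.05). Called genes of the choline list ranged from 0 to 7 and neighbours from 0 to 2 when each library was left out, and were 0 in the other settings run.

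Of the 8 CHKA circles tested, 7 had a log2 fold change below 0, beside 59.8% of all circles in the main fit. None of the 8 passed the adjusted p threshold there. DESeq2, which gave no adjusted p for some of them, called 1 of 8 lower, beside 0.644% of all circles, and the replicate block 1 of 8, beside 1.90%. The filter of 5 counts in 2 libraries called 2 of 4 lower, beside 1.55%, and that of 40 counts 1 of 1, beside 1.21%. Library-size scaling, no filter and the newer dispersion estimate called 0. With no filter, 49 of 59 were below 0, beside 63.8% of all circles. With at least 5 counts in 2 libraries it was 4 of 4, and with at least 40 counts 1 of 1, as fewer or more circles were tested. Without shCtrl replicates 1 and 2 it was 4 of 5 and 6 of 6. Without shHNRNPL replicates 1 and 2 it was 5 of 7 and 6 of 6. CHKA was chosen for a lower sum, so nothing is read from these shares. The largest circle held 23.2% of the CHKA counts in shCtrl and 23.1% in shHNRNPL, with ranges of 16.2% to 30.1% and 22.6% to 23.5% when a library was left out. With exon circles only it held 34.8% and 27.7%. Other causes were not tested.

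Both groups use replicate numbers 1 and 2, without a statement that equal numbers share a culture or a day. The deviations from the group means correlated at 0.0620 between libraries of equal number over 3365 host genes, so the numbers were treated as names. With a replicate block CHKA was at -1.85 and 58 host genes were lower.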

Other observations

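Antisense circles over CHKA were not among the members. They had 17 positions and 40 counts, with 18 and 16 in shCtrl and 5 and 1 in shHNRNPL. CHKA-DT, the divergent transcript listed beside CHKA, had 2 counts in rows that name it alone, both in shHNRNPL replicate 2.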
